A study of Mus musculus with 28 samples.

Results

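Liver messenger RNAs of 45 genes for proteins that hepatocytes release into plasma were followed across 6 groups of male mice. The members were the probes whose RefSeq accession belongs to a fixed list of 19 carrier and transport genes, 15 coagulation genes and 11 complement genes. All 45 were on the array, out of 37208 genes and transcripts measured, and all 45 were well above background on every one of the 28 arrays. Of these, 13 were measured by a second probe as well.

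The study fed phenobarbital, a barbiturate that acts on the liver through the nuclear receptor CAR, to 3 kinds of mice and took total RNA from the liver, 1 array per animal. CD-1 mice, an outbred stock, ate 0 ppm (control) or 1500 ppm for 7 days, with 4 animals in each group. The hCAR/hPXR mice carry the human receptors CAR and PXR in place of the mouse ones; they ate 0 or 1000 ppm for 7 days, with 7 animals in each group. C3H/HeNCrlCrlj mice, called C3H below, ate 0 or 500 ppm for 27 weeks, with 3 animals in each group. Every C3H animal, controls included, had first received diethylnitrosamine, a liver carcinogen, at 90 mg/kg in a single intraperitoneal injection. Ages, and whether the C3H samples came from tumour or from surrounding liver, are not given in the sources used here.

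Plasma proteins of these classes are made mainly by hepatocytes. Carriers bind hormones, lipids, metals, haem or vitamins in the blood; coagulation factors are mostly enzyme precursors that activate one another until fibrinogen is turned into fibrin; complement proteins tag microbes and, in the terminal pathway, form a pore in their membranes. Several of these genes belong to the acute phase response, in which inflammatory signals raise some liver mRNAs (fibrinogen, haptoglobin, haemopexin, complement C3) and lower others (albumin, transthyretin, apolipoprotein A1).

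Levels are given as log2 signal above the 75th percentile of the array, so that 0 is that percentile and 1 unit is a doubling; a level is compared only with the same probe on other arrays. Changes are phenobarbital minus control on the same scale, with the standard error (SE) of a limma fit within the strain. A change was called when its p-value, adjusted by Benjamini and Hochberg over all genes tested in that strain, was under 0.05. The p-values describe the spread between animals that the labels call biological replicates.

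The arrays lay on 5 slides, which were not balanced. All CD-1 controls were on 1 slide and all CD-1 phenobarbital animals on another, so slide and treatment cannot be told apart in that strain. The 7 hCAR/hPXR controls shared a slide with phenobarbital animal 1, and the other 6 phenobarbital animals were on a second slide. All C3H arrays were on 1 slide. Brightness differed too: the 99th percentile of signal lay at 4019 to 6490 on CD-1 arrays, 30159 to 48010 on those of hCAR/hPXR mice and 22576 to 31394 for C3H. The median CV of replicate spots was 17.7 to 21.2% on the arrays of CD-1 phenobarbital animals and 4.73 to 13.1% elsewhere.

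Promoters are shown for 3 members on which the results turn. Alb (albumin) had the largest fall in CD-1 mice, Fga (fibrinogen alpha chain) the largest called fall in C3H mice and C9 (complement C9) the largest fall in hCAR/hPXR mice. The sequences are from RefSeq, build GRCm38.p6. Each is the 150 bases just before the annotated start, 5′ to 3′ on the gene's strand, with matches to the searched motifs in capitals.
Alb, chr5:90460720-90460869, plus strand: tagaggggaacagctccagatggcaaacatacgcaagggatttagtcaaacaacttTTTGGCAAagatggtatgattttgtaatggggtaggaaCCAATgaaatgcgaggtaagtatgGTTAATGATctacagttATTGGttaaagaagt
Fga, chr3:83026003-83026152, plus strand: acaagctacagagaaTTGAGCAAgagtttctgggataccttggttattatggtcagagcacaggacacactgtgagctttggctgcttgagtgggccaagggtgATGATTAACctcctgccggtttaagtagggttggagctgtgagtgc
C9, chr15:6445196-6445345, plus strand: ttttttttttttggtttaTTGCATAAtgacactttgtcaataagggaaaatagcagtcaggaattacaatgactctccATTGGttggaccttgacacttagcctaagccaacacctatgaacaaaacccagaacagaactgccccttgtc
The Alb window held a match to the HNF1 motif, 1 to the C/EBP motif and 2 to the CCAAT box. The Fga window held 1 HNF1 and 1 C/EBP match, and the C9 window 1 C/EBP and 1 CCAAT match.

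Of the 45 members, 35 had a promoter in the table, with 37 promoters in all, each running from 250 bases before to 50 bases after the start. HNF1, HNF4A, C/EBP, STAT3 and FOXA are liver or acute phase transcription factors, and TATA and CCAAT boxes are general promoter elements; both strands were searched. The HNF1 motif (GTTAATNAT) was in 13.5% of member promoters (Alb, C4bp, Fga, Gc and Hc) and 0.801% of the 32851 promoters of all genes. The C/EBP motif (TTGCNNAA), which can overlap CCAAT, was in 37.8% against 10.8%. The FOXA motif (TGTTTAC) was in 10.8% against 3.65%, the STAT3 motif (TTCCNGGAA) in 2.70% against 1.15%, and the HNF4A motif (CAAAGTCCA) in 0% against 0.475%. The TATA box (TATAAA) was in 21.6% against 13.6%, and the CCAAT box, by its 5 letters, in 37.8% against 37.4%. These are matches of letters in this window and are not measured binding. Serpina6 was among the members without an entry.

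With phenobarbital, part of the plasma protein mRNAs fell in CD-1 and C3H mice, and Serpina6 was the 1 member that rose in all 3 strains. In hCAR/hPXR mice more members rose than fell, but those rises were not called once the slide was taken into account. In CD-1 mice 9 members fell and 1 rose (background over all 23836 genes tested, 6.13% lower and 1.85% higher), and the median change of the 45 was -0.66 against -0.04 for all genes. In C3H mice 15 fell and 1 rose (background over 18274 genes, 7.30% lower and 7.38% higher), with a median of -0.50 against -0.05. Among hCAR/hPXR animals 13 members rose and 3 fell, which are 28.9% and 6.67% of the members against 35.0% and 23.2% of the 20040 genes tested, so both shares were below the background. The hCAR/hPXR median was 0.15 against 0.13 for all genes. After quantile normalization, the split in hCAR/hPXR mice became 8 higher and 14 lower. With normexp background correction before it, the split was 9 higher and 16 lower. In the same order, the member medians were -0.28 and -0.29 in CD-1 and -0.24 and -0.27 in C3H mice. The all-gene medians were then 0.05 and 0.0008 in CD-1 and -0.02 and -0.01 in C3H mice. In hCAR/hPXR mice the member medians were -0.03 and -0.0002, against 0.05 and 0.03 for all genes.

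The count of falls in C3H mice depended on single animals. It was 15 with all 6 arrays, 25 without phenobarbital animal 1, 4 without phenobarbital animal 3, 1 without control 2, and 0 without phenobarbital animal 2, control 1 or control 3. Where limma on 5 arrays called 0 members, 22 to 24 were lower at an unadjusted p under 0.05, and 40 or 41 of the 45 changes were negative. In CD-1 mice the count was 4 without phenobarbital animal 1, 2 or 4 and 3 without control 3. Groups that did not overlap give a second view: in C3H mice every phenobarbital animal lay below every control for 38 members (84.4%, against 24.3% of all genes tested) and above for 2 (17.3% of all genes). In CD-1 mice 12 members lay below and 1 above (background 11.9% and 6.52%), and in hCAR/hPXR mice 1 below and 2 above (background 8.13% and 12.2%).

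**Figure D1:**
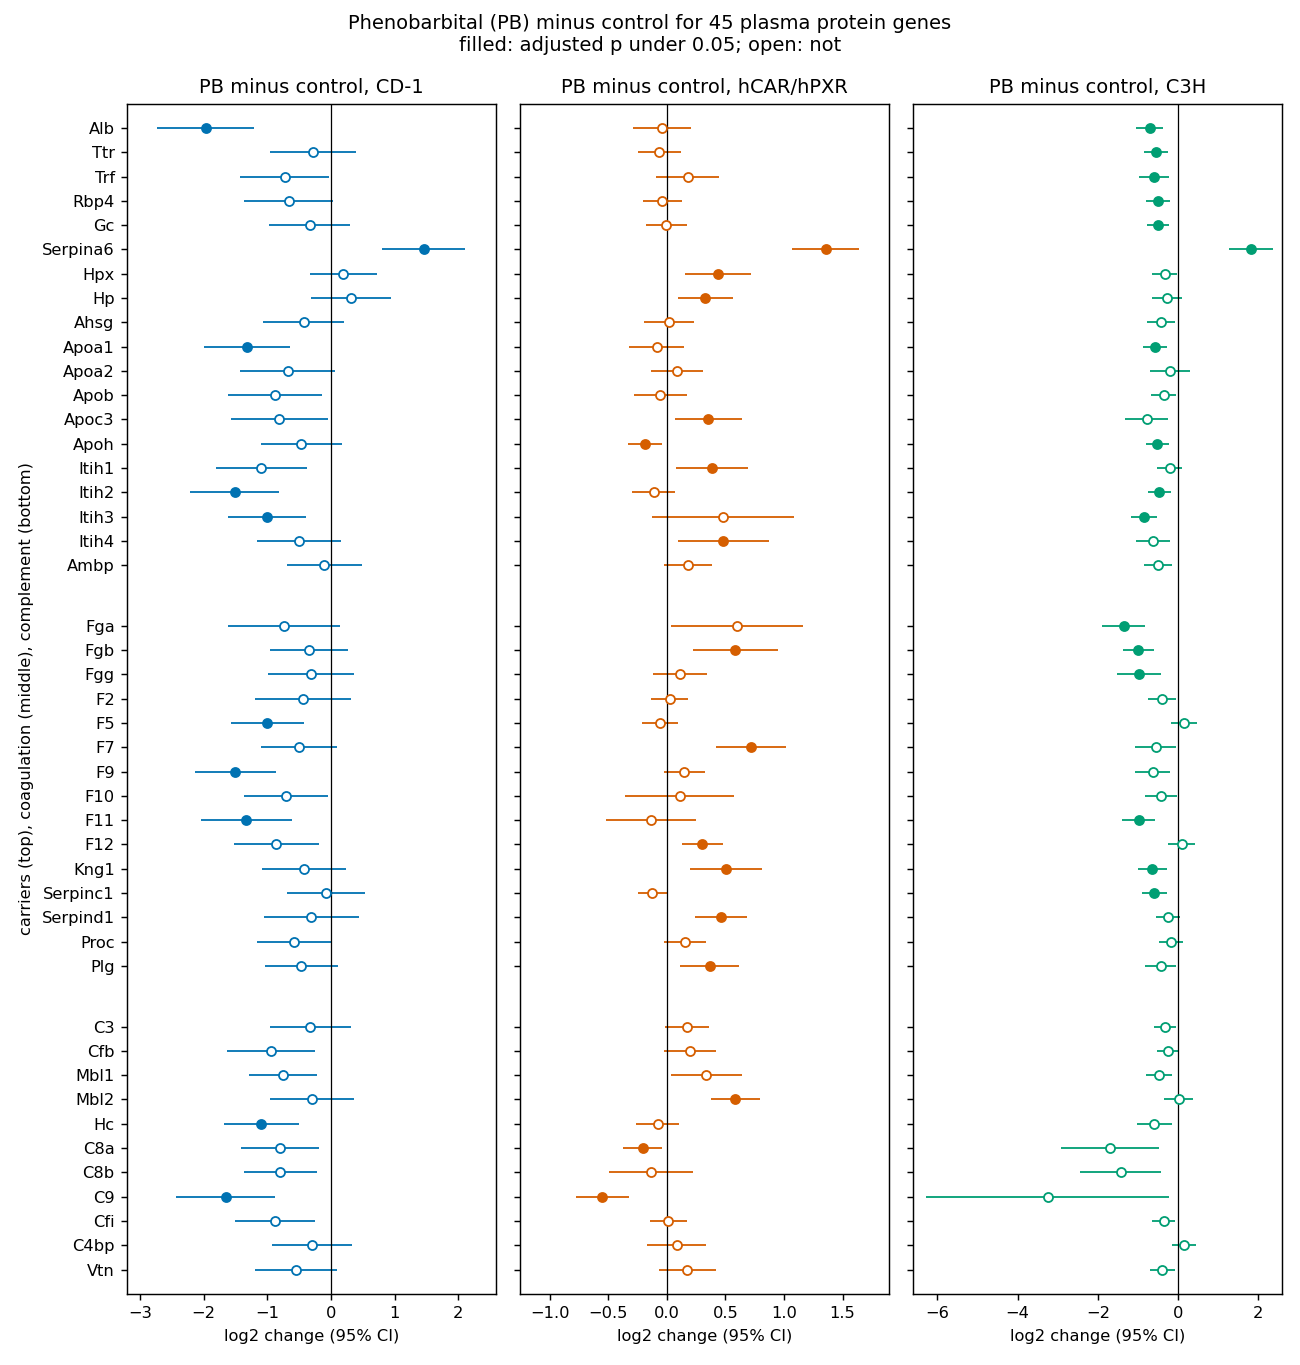
Change of each of the 45 members, phenobarbital minus control, as a log2 change with its 95% confidence interval (horizontal axis), by gene (vertical axis), in CD-1 (n = 4 per group), hCAR/hPXR (n = 7) and C3H mice (n = 3); the horizontal scales differ. Filled points have an adjusted p under 0.05. Most points lie left of 0 in CD-1 (42 of 45) and C3H mice (40 of 45), and Serpina6 lies right of 0 in each panel.

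Most of the calls in hCAR/hPXR mice were not made with slide as a block. That fit cannot tell an effect of the slide from the state of 1 treated animal. Phenobarbital animal 1, the only treated animal on the slide of the controls, lay within the range of the controls for 25 members, below all of them for 18 and above all of them for 2 (Serpina6 and Mbl2). It was the lowest of the 7 phenobarbital animals for 38 members. With slide as a block, which takes the effect from that animal alone, 0 members rose and 1, C9, fell (background 1.26% higher and 0.933% lower), and the median of the members was -0.16. In that fit 39 of 45 members were negative, against 15 of 45 without it. At an unadjusted p under 0.05, limma with the block gave 2 higher and 8 lower. Of all 20040 genes tested, 3052 had such a p in either direction. For members called in hCAR/hPXR mice the value with slide as a block is given as well.

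**Figure D2:**
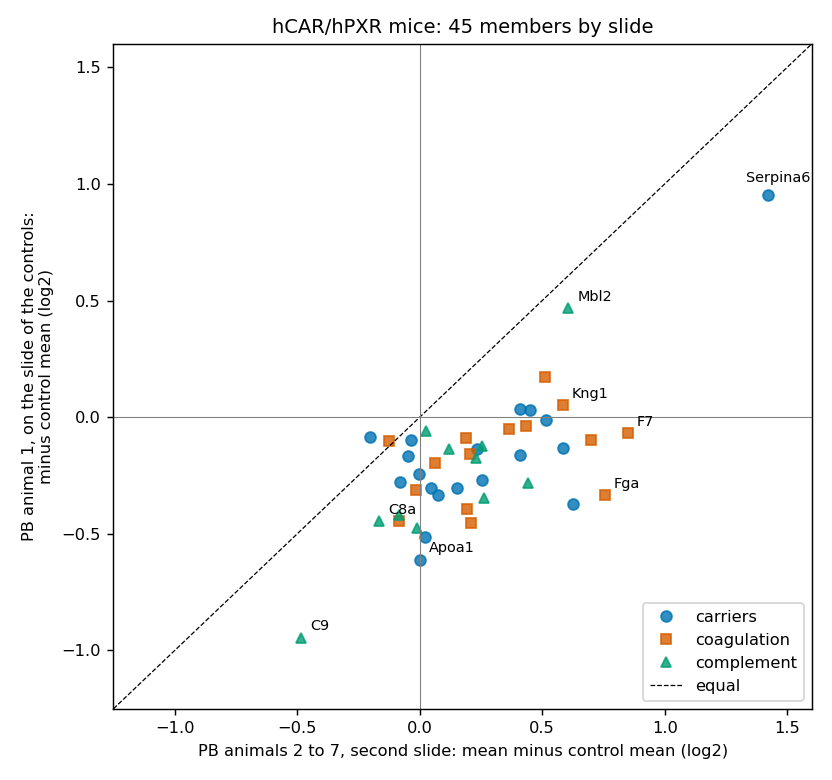
For each of the 45 members in hCAR/hPXR mice, the mean of phenobarbital animals 2 to 7 on the second slide minus the control mean (horizontal axis, log2) and phenobarbital animal 1 minus the same control mean (vertical axis, log2). Nearly all points lie under the dashed line of equality. Serpina6 and Mbl2 are positive and C9 negative on both axes, whereas F7 lies at -0.07 on the vertical axis against a change of 0.72 over all 7 animals.

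Among the 14 transport proteins the member that departed from the rest was Serpina6, which encodes corticosteroid-binding globulin, the plasma carrier of glucocorticoids. In CD-1 mice its levels were 4.06, 3.06, 3.95 and 4.05 in controls and 4.89, 5.27, 5.23 and 5.58 with phenobarbital, a rise of 1.46 (SE 0.30), or 2.75-fold, with an adjusted p of 0.0114. The hCAR/hPXR controls ran from 5.17 to 6.02 (median 5.90) and phenobarbital animals from 6.73 to 7.37 (median 7.14), a 2.56-fold rise with an adjusted p of 5.32e-06. In C3H mice the levels were 6.63, 6.36 and 6.53 in controls and 8.10, 8.07 and 8.82 with phenobarbital, a 3.53-fold rise with an adjusted p of 0.00693. The groups were apart in each strain, and the rise was called under every alternative and without any single animal in CD-1 and C3H mice. With slide as a block the hCAR/hPXR rise was 0.95, with an adjusted p of 0.0661.

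The second Serpina6 probe rose by 0.72 (SE 0.34) in CD-1, 1.40 (SE 0.12) in hCAR/hPXR and 1.97 (SE 0.31) in C3H mice. The rise did not differ between strains by the interaction test: the difference was -0.10 (95% interval -0.69 to 0.48) for hCAR/hPXR minus CD-1, 0.36 (-0.35 to 1.07) for C3H minus CD-1 and 0.46 (-0.18 to 1.11) for C3H minus hCAR/hPXR. These intervals allow differences of over 0.4 in either direction for the first pair and of over 1 for the other pairs, and the doses and durations differed. Serpina6 is counted with albumin, transthyretin, transferrin, fetuin-A (Ahsg), apolipoprotein A1 and retinol-binding protein among the negative acute phase genes. Of these 7, Serpina6 was the only one called higher in any strain, while 2 were called lower in CD-1 and 5 in C3H mice. Over all genes tested, 1.85% were called higher in CD-1, 35.0% in hCAR/hPXR and 7.38% in C3H mice. Those called lower were 6.13% in CD-1 and 7.30% in C3H mice.

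Albumin (Alb), the most abundant plasma protein and a carrier of fatty acids and hormones, had the largest fall of any member in CD-1 mice. Its levels were 9.27, 8.32, 8.94 and 8.79 in CD-1 controls and 5.93, 6.98, 7.56 and 6.97 with phenobarbital, and the groups did not overlap. The change was -1.97 (SE 0.36), a 3.92-fold lower level with an adjusted p of 0.00493, and it was called without any single animal. It was -1.22 after quantile normalization and -0.96 with normexp before it, and was called under both. Phenobarbital animal 1, the lowest for Alb at 5.93, had the highest summed level of acute phase genes outside the list in this group, 1738 against 209 to 785 in the others; the part of this in the fall was not tested. In C3H mice Alb was 11.33, 11.15 and 11.17 in controls and 10.67, 10.56 and 10.29 with phenobarbital, 1.64-fold lower with an adjusted p of 0.0279. The hCAR/hPXR groups overlapped, from 9.90 to 10.64 (median 10.33) in controls and from 10.05 to 10.54 (median 10.17) with phenobarbital, and the change was -0.04 (SE 0.12) and -0.10 with slide as a block.

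Other carriers fell as well in CD-1 and C3H mice. Apoa1, the main protein of high-density lipoprotein, fell by 1.32 in CD-1 (adjusted p = 0.0221) and by 0.57 in C3H mice (adjusted p = 0.0329). In C3H mice calls were also made for transferrin (Trf, -0.60), transthyretin (Ttr, -0.56), beta-2-glycoprotein I (Apoh, -0.52), vitamin D-binding protein (Gc, -0.51) and retinol-binding protein (Rbp4, -0.50). The second Trf probe had a change of 0.30 (SE 0.74) in C3H mice, opposite in sign to the first. After quantile normalization Trf was at -0.10, Rbp4 at 0.01 and Gc at -0.30 in C3H mice, and with normexp they were at -0.12, -0.06 and -0.27, none of them called. Ttr and Apoh were called under both. Hp, haptoglobin, and Hpx, haemopexin, which bind haemoglobin and haem, were not called in CD-1 (0.31 and 0.19) or C3H mice (-0.28 and -0.34).

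Besides Serpina6, the transport proteins called in hCAR/hPXR mice were Hpx (0.44), Apoc3 (0.35, an inhibitor of triglyceride clearance) and Hp (0.33), which rose, and Apoh (-0.18), which fell. Apoh ran from 8.77 to 8.96 (median 8.81) in controls and from 8.48 to 8.79 (median 8.67) with phenobarbital, so the groups overlapped. With slide as a block Hpx was at -0.01, Apoc3 at 0.04, Hp at -0.16 and Apoh at -0.08, none of them called. Apoa2, Apob and Ahsg (fetuin-A, a mineral carrier) were called in no strain.

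Itih1 to Itih4 belong to the inter-alpha-trypsin inhibitor family. Heavy chains (Itih1 to Itih3) and a light chain encoded by Ambp form a matrix-stabilising protease inhibitor. Itih2 fell in CD-1 mice from 5.35, 4.55, 5.27 and 5.01 to 2.91, 3.52, 4.24 and 3.48, with the groups apart; the change was -1.51 (SE 0.32, adjusted p = 0.0135). In C3H mice it fell by 0.47 with an adjusted p of 0.0495. Itih3 fell in CD-1 (-1.01) and C3H mice (-0.85); its C3H levels were 8.04, 7.95 and 8.20 in controls and 7.35, 7.07 and 7.23 with phenobarbital (adjusted p = 0.0151). Itih1 (0.39) and Itih4 (0.48) rose in hCAR/hPXR mice; with slide as a block Itih1 was at 0.03. Itih4 ran from 8.71 to 9.84 (median 9.17) in controls and from 9.01 to 9.98 (median 9.60) with phenobarbital, with overlap, and with slide as a block it was at -0.13. Ambp was called in no strain.

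Fibrinogen, the precursor of the fibrin clot, has 3 chains encoded by Fga, Fgb and Fgg, and all 3 fell in C3H mice with the groups apart. Fga, whose promoter is shown above, was at 8.13, 7.98 and 8.04 in C3H controls and at 7.16, 6.56 and 6.34 with phenobarbital, 2.57-fold lower (-1.36, SE 0.22, adjusted p = 0.0159), and its second probe gave -1.50. Fgb was at 10.83, 10.73 and 10.84 in controls and at 10.12, 9.65 and 9.66 with phenobarbital, 1.99-fold lower with an adjusted p of 0.0164, and Fgg was 1.98-fold lower with an adjusted p of 0.0376. In CD-1 mice none of the chains was called, and the Fgb groups overlapped (7.94, 7.55, 8.43 and 7.64 in controls; 7.77, 7.33, 7.74 and 7.33 with phenobarbital).

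Fibrinogen in hCAR/hPXR mice went the other way before the slide was taken into account. Fgb ran from 9.12 to 10.03 (median 9.25) in controls and from 9.34 to 10.44 (median 10.06) with phenobarbital, a rise of 0.59 (SE 0.17, adjusted p = 0.009). Phenobarbital animal 1, on the control slide, was the lowest treated animal at 9.34, and control 1 was the highest control at 10.03. With slide as a block Fgb was at -0.10. Fga had a change of 0.60 and Fgg of 0.11, neither called, with block values of -0.33 and -0.45.

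**Figure D3:**
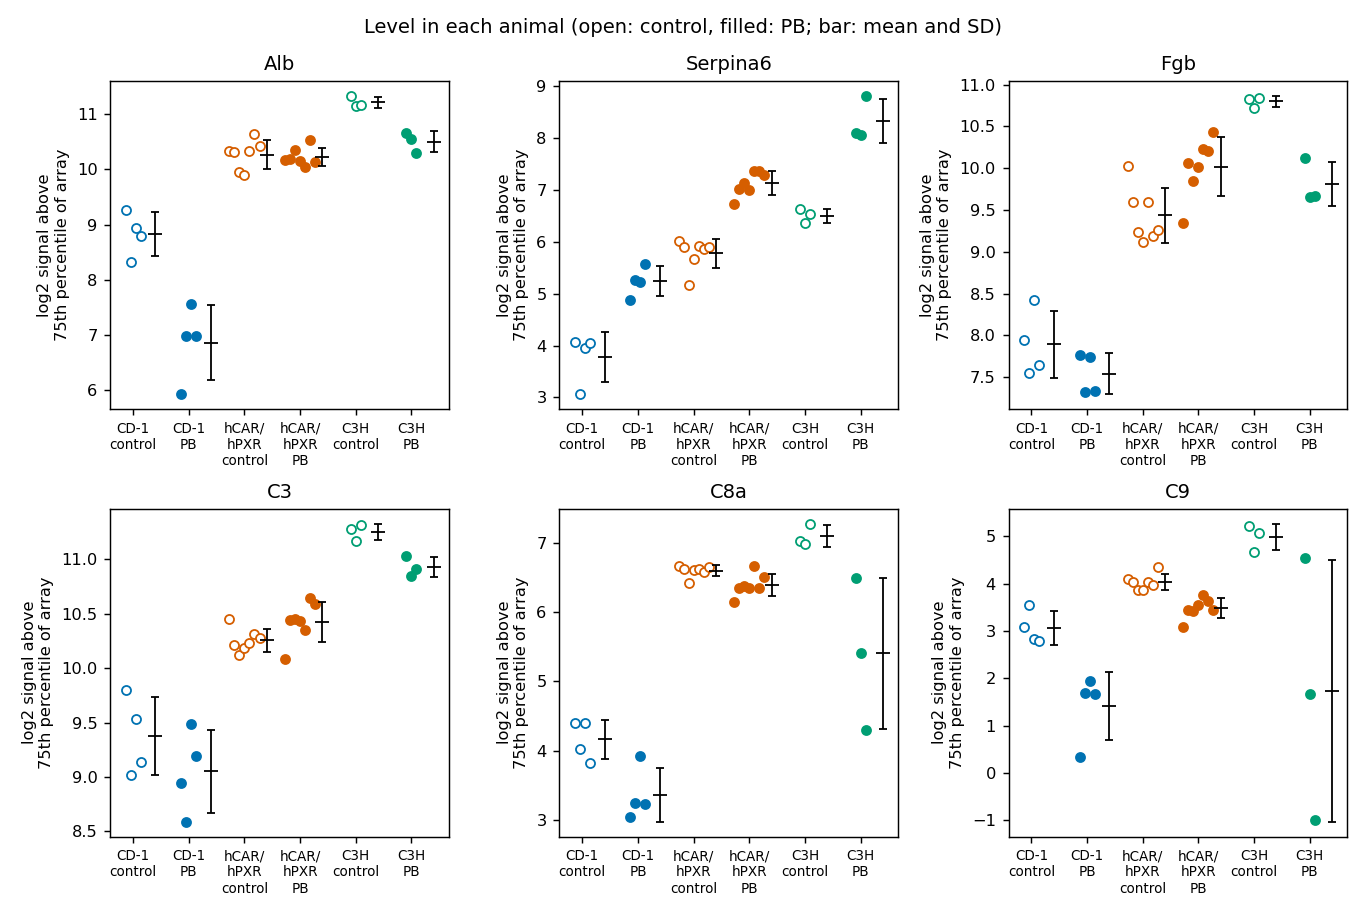
Level of 6 members in each animal (vertical axis, log2 signal above the 75th percentile of the array; vertical scales differ) in the 6 groups; open points are controls, filled points phenobarbital animals, and the bars give the mean and SD. Serpina6 is higher with phenobarbital in each strain, Alb is lower in CD-1 and C3H mice, and C9 and C8a in the C3H phenobarbital animals spread from near the controls to far below them.

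Among the 8 coagulation factors the falls in CD-1 mice were in F9, F11 and F5. F9, factor IX of the intrinsic tenase, was at 4.35, 3.75, 4.20 and 3.75 in CD-1 controls and at 1.94, 2.50, 2.69 and 2.91 with phenobarbital, 2.83-fold lower (adjusted p = 0.00815), and was called under every alternative. F11, factor XI, went from 2.57, 2.01, 2.36 and 1.80 to 0.26, 0.91, 1.66 and 0.59, a change of -1.33 (SE 0.33, adjusted p = 0.0283), and F5, the cofactor factor V, had a change of -1.001, with -1.08 at its second probe. F11 also fell in C3H mice, by 0.99 (adjusted p = 0.0198), and Kng1, high-molecular-weight kininogen, was called at -0.64. The second Kng1 probe was at -0.31 (SE 0.21) in C3H mice, and after quantile normalization the first was at -0.22 and not called. F5 in C3H mice was at 0.15 and not called, and F9 at -0.63 was not called (adjusted p = 0.0627).

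F7, factor VII, which starts coagulation with tissue factor, rose in hCAR/hPXR mice. It ran from 3.59 to 3.88 (median 3.70) in controls and from 3.65 to 4.82 (median 4.53) with phenobarbital, a 1.64-fold rise with an adjusted p of 0.000608. The 6 animals on the second slide were all above the controls, from 4.37, and animal 1, at 3.65, lay among the controls, so that the block value was -0.07. Kng1 (0.51) and F12, factor XII (0.30), were called as well and had block values of 0.05 and -0.05. The vitamin K-dependent enzymes F2 (prothrombin) and F10 were called in no strain at the probe used. The second F10 probe had a change of 0.44 (SE 0.10) in hCAR/hPXR mice, against 0.11 at the first.

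Of the 4 inhibitors and fibrinolytic genes, Serpinc1, which encodes antithrombin, fell in C3H mice by 0.59 (adjusted p = 0.0328). Serpind1 (heparin cofactor II, 0.46) and Plg (plasminogen, 0.37) rose in hCAR/hPXR mice, with block values of 0.17 and -0.04. None was called in CD-1 mice, and Proc, protein C, was called nowhere.

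In complement, falls were called in terminal genes (C9 and Hc in CD-1, C9 and C8a in hCAR/hPXR mice). Whether these differed from the activation genes was not tested; in CD-1 mice Cfb (-0.94, adjusted p = 0.0885 by limma) and Cfi (-0.88, adjusted p = 0.0775) were not called. In C3H mice limma called 0 of the 11 complement genes, with 8 lower at an unadjusted p under 0.05. Of all 18274 genes tested there, 6468 had such a p in either direction. C9 encodes the unit that polymerises into the membrane pore. Its levels in CD-1 mice were 3.09, 3.55, 2.83 and 2.79 in controls and 0.34, 1.68, 1.94 and 1.67 with phenobarbital, 3.15-fold lower with an adjusted p of 0.0144; after quantile normalization the change was -1.85 with an adjusted p of 0.0674. Its hCAR/hPXR levels ran from 3.86 to 4.36 (median 4.03) in controls and from 3.09 to 3.77 (median 3.45) with phenobarbital, with the groups apart and a change of -0.55 (SE 0.11, adjusted p = 0.000535). With slide as a block it was the member that kept a call, at -0.94 with an adjusted p of 0.012. That value sets 1 treated animal against the 7 controls and takes the spread from all animals; on the first slide only the adjusted p was 0.061.

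The C3H values of C9, C8a and C8b are singled out here after their values were seen, since none was called. C9 was at 5.21, 4.68 and 5.08 in C3H controls and at 4.54, 1.67 and -1.0 with phenobarbital, so that the treated animals differed far more than the controls; the change was -3.25 (SE 1.26, adjusted p = 0.122). C8a, a chain of the component that anchors the pore, was at 7.04, 6.99 and 7.28 in controls and at 6.50, 5.41 and 4.30 with phenobarbital (-1.70, SE 0.51, adjusted p = 0.0702), with -1.78 at its second probe. C8b was at 7.72, 7.34 and 7.72 and at 7.16, 5.76 and 5.57 (-1.43, SE 0.42, adjusted p = 0.0657). Phenobarbital animal 1 was nearest to the controls and animal 3 farthest for each of these genes. Without animal 1 all 3 were called, with changes of -4.65, -2.25 and -1.93. Calls over all 18274 genes tested then rose as well, from 2682 to 5382. Leaving out any other single animal called none of the 3, and the weakest changes were -1.88, -1.15 and -1.14.

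The other terminal gene, Hc, encodes complement C5 and fell in CD-1 mice from 7.57, 6.98, 6.82 and 7.00 to 6.05, 6.14, 6.18 and 5.62 (-1.09, SE 0.27, adjusted p = 0.0287). In C3H mice it was at -0.59 and not called. C8a fell in hCAR/hPXR mice by 0.21 (adjusted p = 0.0352), from a range of 6.42 to 6.66 in controls to 6.15 to 6.67 with phenobarbital, but its second probe was at 0.08. The block value of C8a was -0.45, not called. All 4 terminal genes had negative changes in each strain at the probe used.

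C3, the central component on which the activation pathways meet, was called in no strain at the probe used. The second C3 probe had a change of 0.53 (SE 0.16) in hCAR/hPXR, -0.39 in CD-1 and -0.17 in C3H mice. Its CD-1 levels were 9.80, 9.02, 9.54 and 9.14 in controls and 8.94, 8.59, 9.49 and 9.19 with phenobarbital, with overlap (-0.32, SE 0.29). In hCAR/hPXR mice it ran from 10.13 to 10.45 (median 10.23) and from 10.08 to 10.64 (median 10.45), a change of 0.17 and of -0.18 with slide as a block. In C3H mice it was at 11.28, 11.17 and 11.31 in controls and at 11.03, 10.85 and 10.91 with phenobarbital, apart but not called (-0.33, adjusted p = 0.106), and after quantile normalization the value was 0.04. Mbl2, a mannose-binding lectin of the lectin pathway, rose in hCAR/hPXR mice. It ran from 8.00 to 8.54 (median 8.34) in controls and from 8.60 to 9.09 (median 8.87) with phenobarbital, with the groups apart, an adjusted p of 0.000186 and a block value of 0.47. Mbl1, Cfb (factor B) and the regulators Cfi, C4bp and Vtn were called nowhere; in hCAR/hPXR mice the fit left out control 6 for Cfb and Cfi and phenobarbital animal 2 for Cfi, whose spots were outliers. The second probe differed in sign from the first for C8a, Apob and Gc in hCAR/hPXR, Trf in C3H and F10 in CD-1 mice (0.17 against -0.71).

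In all, 14 members were called in no strain and 1, Serpina6, in all 3. The 5 that were called lower in both CD-1 and C3H mice were Alb, Apoa1, Itih2, Itih3 and F11. On leaving out each animal in turn, none of these 5 kept its call throughout in C3H mice, and only Alb did in CD-1 mice. Fgb and Kng1 were called higher in hCAR/hPXR and lower in C3H mice. The changes were negative in all 3 strains for 14 members. By class, the carriers had 1 rise and 4 falls in CD-1 and 1 rise and 9 falls in C3H mice (median changes -0.66 and -0.51), the coagulation genes 3 and 6 falls (-0.50 and -0.56) and the complement genes 2 and 0 falls (-0.80 and -0.39). Of the 5 vitamin K-dependent genes (F2, F7, F9, F10 and Proc), 1 fell in CD-1 and 1 rose in hCAR/hPXR mice. Of the 10 members raised in an acute phase response, 1 fell in CD-1 and 4 in C3H mice, and 4 rose in hCAR/hPXR mice, where their median was -0.15 with slide as a block. Over all genes 6.13% fell in CD-1 and 7.30% in C3H mice, and 35.0% rose in hCAR/hPXR mice, so that 4 of 10 there is near the background.

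The phenobarbital effect itself differed between strains for many members, tested as an interaction in 1 fit of all 28 arrays, and strain cannot be told apart from dose, duration, carcinogen treatment and slide. For hCAR/hPXR minus CD-1, 26 members had a higher (less negative or more positive) effect and 0 a lower one, against 19.5% and 9.09% of the 27105 genes tested; at an unadjusted p under 0.05 limma also gave 0 lower. The largest were Alb (1.93, SE 0.30), F9 (1.65, SE 0.23), Itih3 (1.49) and Itih1 (1.49). After quantile normalization, with or without normexp, 12 were higher. Under these and with array weights 10 stayed called, among them Alb, F9, Itih1, Itih2 and F7. The alternatives for these contrasts did not take the split of the hCAR/hPXR mice over slides into account.

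For C3H minus CD-1, 5 were higher and 0 lower by limma, with 3 lower at an unadjusted p under 0.05 (background 9.53% and 5.38%): Alb (1.26), F5 (1.15), Itih2 (1.04), F12 (0.96) and F9 (0.87). For C3H minus hCAR/hPXR, 13 were lower and 0 higher by limma, also 0 higher at an unadjusted p under 0.05 (background 4.64% and 3.86%), with the largest in C9 (-2.70, SE 0.82), Fga (-1.96, SE 0.51), Fgb (-1.58, SE 0.31) and C8a (-1.49, SE 0.38). The joint fit assumes 1 spread for all groups, while the SD of C9 ran from 0.17 in hCAR/hPXR controls to 2.77 in C3H phenobarbital animals. C9, C8a and C8b were called in this contrast but not within C3H mice. In this contrast the C9 call was kept under 1 of 3 alternatives. The all-gene median of that contrast was -0.12 and moved to -0.01 after quantile normalization, under which 2 members were lower. F7 and Fgb were called after quantile normalization, with or without normexp, and with array weights. None of these alternatives took the split of the hCAR/hPXR mice over slides into account. Within hCAR/hPXR mice, F7 went from 0.72 to -0.07 and Fgb from 0.59 to -0.10 with slide as a block. The pairs of contrasts share animals, so their counts are not independent.

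Control levels of the same probes also differed between the strains. The hCAR/hPXR controls were higher than the CD-1 controls for 34 members and lower for 5 (background 50.6% and 37.4%), with a median difference of 1.52 against 0.57 over all genes. The differences ran up to 2.94 for C4bp, a regulator of the classical pathway. Those called lower were F10 (-2.12), Trf (-1.35), Apoa2 (-0.97), Apoa1 (-0.93) and Apob (-0.68). Apoc3 and F9 were also lower, without a call. C3H controls were above CD-1 controls for 40 members and below for 1, F10 (background 50.8% and 38.0%; median 1.91 against 0.72). C3H controls were above hCAR/hPXR controls for 36 members and below for 1, F12 (background 29.1% and 18.2%; median 0.85 against 0.18).

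These control differences depended on the scaling. After quantile normalization the median C3H minus hCAR/hPXR difference was -0.02, with 4 members higher and 4 lower. The hCAR/hPXR minus CD-1 median was 0.60, with 29 higher and 9 lower, while the all-gene median moved from 0.57 to 0.37. In the control groups the order from CD-1 to hCAR/hPXR to C3H held for Alb (8.83, 10.27 and 11.22, with SDs of 0.39, 0.26 and 0.10) and for Fgb (7.89, 9.43 and 10.80, with SDs of 0.40, 0.33 and 0.06). For C3 the means were 9.37, 10.26 and 11.26 (SDs of 0.36, 0.11 and 0.07). Strain, slide, array brightness and, in C3H, the carcinogen cannot be told apart here.

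**Figure D4:**
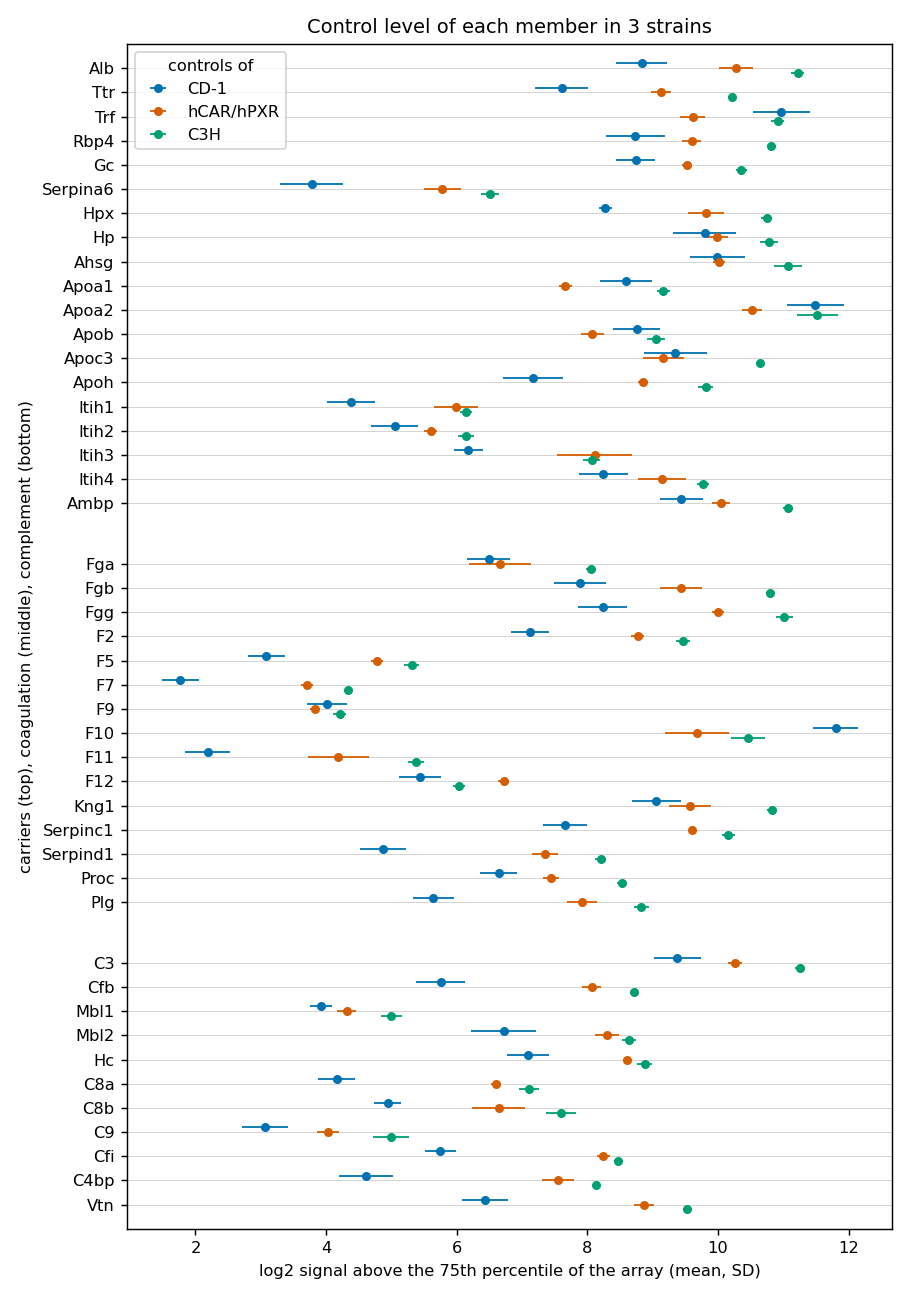
Mean level (horizontal axis, log2 signal above the 75th percentile of the array) with SD of each member in the controls of CD-1 (n = 4), hCAR/hPXR (n = 7) and C3H mice (n = 3). For most members CD-1 is lowest and C3H highest under this scaling. F10, Trf, Apoa2, Apoa1, Apob, Apoc3 and F9 are lower in hCAR/hPXR than in CD-1 controls. Levels are comparable along a line and not between genes.

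The spread between animals differed between groups. The median SD over the 45 members was 0.35 in CD-1 controls and 0.43 in CD-1 phenobarbital animals, 0.15 and 0.20 in hCAR/hPXR, and 0.10 and 0.18 in C3H mice. The highest SDs of all were those of C9 (2.77) and C8a (1.10) in C3H phenobarbital animals.

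Genes of the same pathways outside the member list are given here by their counts, with up to 3 per list and strain named by the smallest adjusted p, and others where a count was small enough to name each gene. Beside these counts, 35.0% of all genes rose and 23.2% fell in hCAR/hPXR, 1.85% and 6.13% in CD-1, and 7.38% and 7.30% in C3H mice. Of 14 other coagulation genes, 8 rose in hCAR/hPXR mice, among them Pros1 (protein S, 0.80), Proz (0.59) and Ggcx (the vitamin K-dependent carboxylase, 0.50), but limma with slide as a block called 0, with 1 higher at an unadjusted p under 0.05. In C3H mice Fgl1, fibrinogen-like 1, fell by 1.96 and Klkb1, plasma prekallikrein, by 0.75, while Habp2 (0.67) and Pros1 (0.45) rose, and in CD-1 mice Klkb1 fell by 1.43. Of 24 other carriers tested in C3H mice 8 fell, among them Pzp (-0.54), Serpina1d (-0.82) and Mug2 (-1.19), and in CD-1 mice 3 of 23 fell (Mug1, Mug2 and Apoe). Of 16 other complement genes 1 fell in CD-1 mice (C1s1), and in hCAR/hPXR mice 6 rose, among them C1qa (0.66), Cfp (0.48) and C1qb (0.51), and 1, C6, fell by 0.43. Limma with slide as a block called 0 of these complement genes, with 0 higher and 1 lower at an unadjusted p under 0.05.

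Secretory pathway genes, which carry these proteins out of the cell, rose for 15 of 19 tested in hCAR/hPXR mice, among them Ssr2 (0.80), Mcfd2 (0.73) and Ssr1 (0.50), and 0 of 19 with slide as a block, with 2 higher at an unadjusted p under 0.05. Limma called none in CD-1 mice (1 higher and 1 lower at an unadjusted p under 0.05) or C3H mice (1 higher and 3 lower). Among 15 liver transcription factors, Cebpb (0.89) and Cebpd (0.73) rose in C3H mice, Stat3 (0.54) rose and Cebpd (-0.69) fell in hCAR/hPXR mice, and limma called 0 in CD-1 mice, with 4 lower at an unadjusted p under 0.05. In hCAR/hPXR mice limma with slide as a block called 0 of the factors, with 0 higher and 2 lower at an unadjusted p under 0.05.

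Acute phase genes outside the list also varied between animals. In hCAR/hPXR mice the summed linear level of 18 such genes was 6696 in control 1 and 1154 to 3437 in the other controls, and 2272 in phenobarbital animal 1 and 3884 to 7145 in the others. The mean level of the 10 acute phase members (Fga, Fgb, Fgg, Hp, Hpx, C3, Cfb, Itih3, Itih4 and C4bp) was 9.42 in control 1 and 8.62 to 8.96 in the other controls, and 8.70 in phenobarbital animal 1 and 9.12 to 9.57 in the others. Control 1 and the 6 animals of the second slide were above the other animals on both measures; their part in the hCAR/hPXR calls was not tested. Of these genes 2 rose in CD-1 (of 17 tested), 8 in hCAR/hPXR and 1 in C3H mice, and 0 in hCAR/hPXR mice by limma with slide as a block (1 at an unadjusted p under 0.05). Over all genes tested, 1.85% rose in CD-1, 35.0% in hCAR/hPXR and 7.38% in C3H mice, so that 8 of 18 in hCAR/hPXR mice is near the background. Orm3 rose in all 3 strains (2.62 in CD-1, 2.06 in hCAR/hPXR and 2.68 in C3H mice). In C3H mice the sum was 1221 to 1812 in controls and 513 to 1910 with phenobarbital, and in CD-1 mice 181 to 471 and 209 to 1738.

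As a check of the label liver, 12 hepatocyte genes whose products are not secreted were all well above background on every array. Their summed level was 581 to 1025 in CD-1 controls and 378 to 779 with phenobarbital, 2904 to 3813 and 2953 to 3810 in hCAR/hPXR, and 4445 to 5680 and 3620 to 4546 in C3H mice. Their median change was -0.63 in CD-1, 0.16 in hCAR/hPXR and -0.84 in C3H mice, beside -0.66, 0.15 and -0.50 for the members. Of the 12, 1 was called lower in CD-1 (6.13% of all genes) and 3 lower in C3H mice (7.30%). In hCAR/hPXR mice 3 were called higher and 1 lower, against 35.0% and 23.2% of all genes. Limma with slide as a block called 0 of them, with 0 higher and 1 lower at an unadjusted p under 0.05. In bulk tissue fewer hepatocytes and less of an mRNA per hepatocyte cannot be told apart.

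Markers of other cells also moved, and their part in these results was not tested. The neutrophil gene S100a8 rose in CD-1 mice by 6.67, while the summed level of the 9 neutrophil genes on the array was 169 to 379 in controls and 128 to 320 with phenobarbital; Mpo was not well above background on any array of either group. In C3H mice the summed levels with phenobarbital were below the controls for 9 lymphocyte genes (20.7 to 42.3 against 53.9 to 73.0), 8 endothelial genes (83.5 to 120 against 138 to 151), 8 Kupffer cell genes (74.2 to 89.0 against 89.9 to 118) and 7 red blood cell genes (713 to 874 against 906 to 1266). The endothelial genes did not all fall: 5 of 8 changes were negative, and limma called 1 higher and 1 lower (7.38% and 7.30% of all genes). For 9 stellate cell and fibroblast genes the C3H ranges were 47.1 to 89.3 against 89.2 to 111, but of the 7 tested 4 were higher and 1 lower at an unadjusted p under 0.05, and limma called 0. The C3H ranges were, for 7 bile duct genes 2.58 to 5.10 against 2.56 to 3.84, and for 7 pancreatic genes 13.6 to 28.4 against 12.3 to 14.0, with Cpa1, Prss2 and Pnlip not well above background in either group. The hCAR/hPXR summed level of the 9 lymphocyte genes was 38.2 to 56.9 in controls and 19.3 to 29.4 with phenobarbital, and that of the 8 Kupffer cell genes was 115 to 156 and 123 to 252, with overlap.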

How the data were processed

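Liver RNA of 28 mice was measured on 1-colour Agilent arrays of 62976 spots. Per the file headers, the authors' scanner files hold intensity values from Agilent Feature Extraction 10.7.3.1, with a processed signal that is background-subtracted. The authors' deposited value table holds log2 values; each column equalled the values used here minus a constant of -0.0102 to 0.0233. Here outlier spots (109 to 430 per array) were dropped, replicate spots averaged, and each array's 75th percentile of log2 signal over 55681 probes subtracted. RefSeq accessions (GRCm38.p6) named 26576 probes (20141 symbols), and 29105 stayed unnamed. A gene was its probe with the highest mean, and was tested if well above background on every array of a group.

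limma 3.58.1 (R 4.3.3) was fitted within each strain, and across all 28 arrays for interactions and control levels, which assumes 1 spread for all groups. Tables were made with Python 3.11.15. On simulated data, changes of 2 on the log2 scale were recovered for 72% of changed genes in CD-1, 99% in hCAR/hPXR and 74% in C3H mice, and changes of 1 for 4%, 83% and 44%. The simulated data had few changed genes, independent normal noise and no slide effect, so recovery in the measured data may differ. The number of arrays limits the precision. Alternatives were quantile normalization, normexp (offset 50, on median signals), the deposited table, the mean of probes, other filters, 1 joint fit, slide and replicate blocks, array weights and leaving out each animal. Values per animal are given for Alb, Fgb, C3 and up to 2 called members per class, strain and direction; up to 3 called genes are named per pathway list and up to 4 interactions per pair of strains. The members and lists were chosen with earlier results of these data known. The counts of other complement genes in C3H mice are not reported here.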

Additional observations from a re-analysis of the deposited data

Results flagged for a closer look

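The 45 members in the groups of 4 to 7 animals made 180 pairs of member and group, which share animals and are not independent. In 20 of these pairs 1 animal lay far from the others, a number that was not tested against chance. Of these, 8 were phenobarbital animal 1 of the hCAR/hPXR mice, the treated animal on the slide of the controls, with log2 levels above the 75th percentile as follows: Hp (9.81), Apob (7.56), Fgg (9.55), F7 (3.65), F12 (6.67), Kng1 (9.62), Hc (8.14) and Vtn (8.52). Among hCAR/hPXR controls, animal 3 stood apart for Serpina6 (5.17), C8a (6.42) and C8b (5.77), animal 1 for F11 (3.23) and Vtn (9.18), animal 6 for Itih1 (5.28) and Serpinc1 (9.67) and animal 2 for Plg (7.42). In CD-1 mice, phenobarbital animal 1 stood apart for Apob (6.93) and C9 (0.34), phenobarbital animal 3 for Cfi (5.51) and control animal 2 for Serpina6 (3.06).

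The phenobarbital effect differed between strains by the interaction test for the members below, given as differences of log2 changes. For hCAR/hPXR minus CD-1 mice they were Alb (1.93), Trf (0.91), Apoa1 (1.23), Apob (0.83), Apoc3 (1.16), Itih1 (1.49), Itih2 (1.40), Itih3 (1.49), Itih4 (0.98), Fga (1.34), Fgb (0.93), F5 (0.94), F7 (1.22), F9 (1.65), F11 (1.196), F12 (1.17), Kng1 (0.93), Serpind1 (0.77), Proc (0.74), Plg (0.83), Cfb (1.14), Mbl1 (1.09), Mbl2 (0.89), Hc (1.02), Cfi (0.89) and Vtn (0.73). For C3H minus CD-1 mice they were Alb (1.26), Itih2 (1.04), F5 (1.15), F9 (0.87) and F12 (0.96). For C3H minus hCAR/hPXR mice they were Hpx (-0.78), Apoc3 (-1.14), Itih4 (-1.12), Fga (-1.96), Fgb (-1.58), Fgg (-1.097), F7 (-1.28), Kng1 (-1.15), Plg (-0.80), Mbl1 (-0.81), C8a (-1.49), C8b (-1.30) and C9 (-2.70). Strain cannot be told apart from dose, duration, carcinogen treatment and slide in these differences. The joint fit assumes 1 spread for all groups, and C9, C8a and C8b were not called within C3H mice.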

How the results depend on the processing

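Serpina6 was called higher in CD-1 and C3H mice under each alternative run, and Alb and F9 lower in CD-1 mice. The 9 falls in CD-1 mice became 5 after quantile normalization, 4 without a filter on dim probes and 24 in 1 fit of all arrays; leaving out 1 animal gave 3 to 13. In C3H mice (15) the counts were 8 after quantile normalization, 0 by limma without the filter and 0 to 25 leaving out 1 animal. Without the filter 25 members were lower at an unadjusted p under 0.05. Of all 37208 genes, 6807 had such a p in either direction. With the replicate number as a replicate block, 4 members fell in CD-1 and 5 in C3H mice. The numbers were not taken as pairs: same-numbered animals correlated from -0.45 to 0.19 in CD-1, -0.14 to 0.28 in hCAR/hPXR and 0.09 to 0.20 in C3H mice, where each correlated best with its own number, a hint from the data and not the design. In hCAR/hPXR mice the 13 rises became 8 after quantile normalization, 0 with slide as a block or on the first slide only, and 10 to 22 leaving out 1 animal, with 22 without phenobarbital animal 1. The 3 falls became 14 after quantile normalization, 16 with normexp, 1 without the filter, 1 with slide as a block, 0 on the first slide only (9 at an unadjusted p under 0.05), 0 in 1 fit of all arrays and 1 to 3 leaving out 1 animal, with 1 without control 4, control 7, phenobarbital animal 2 or animal 4. C9 had an adjusted p of 0.061 on the first slide only and 0.341 in the joint fit of all arrays by limma. With slide as a block or on the first slide only, values reversed to -0.013 for Hpx, -0.16 for Hp, -0.13 for Itih4, -0.10 for Fgb, -0.067 for F7, -0.050 for F12, -0.037 for Plg and -0.18 for C3. Alb in hCAR/hPXR mice ran from -0.11 to 0.017 leaving out 1 animal, and was above 0 without control 6 only. In C3H mice Rbp4 was at 0.0057 and C3 at 0.036 after quantile normalization, and C3 at 0.19 with normexp. For effects between strains, hCAR/hPXR minus CD-1 gave 12 higher after quantile normalization and 12 with normexp, and 1 lower after quantile normalization, with Serpind1 at -0.011 with normexp. With normexp, C3H minus CD-1 gave 8 higher and 3 lower. C3H minus hCAR/hPXR gave 2 lower after quantile normalization, and 7 lower and 1 higher with normexp. Control levels lower in hCAR/hPXR than CD-1 numbered 9 after quantile normalization, 10 with normexp and 2 with the mean of probes; for C3H minus CD-1 these were 7, 7 and 0. C3H minus hCAR/hPXR controls gave 4 higher and 4 lower after quantile normalization, and 7 and 6 with normexp. The cause of these shifts was not tested.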
